A study of Mus musculus with 14 samples.

Results

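The genes described here carry long-chain fatty acids (FAs) into mitochondria and break them down there. They were taken by name from the biochemistry of the carnitine shuttle and of mitochondrial FA oxidation, and number 34 of the 54532 genes in the count table. By step they comprise 7 genes of the carnitine shuttle, 9 acyl-CoA dehydrogenases, both subunits of the mitochondrial trifunctional protein, 3 matrix enzymes of the short and medium spiral, 3 auxiliary enzymes for unsaturated chains, 3 genes of the electron transfer flavoprotein system and 7 enzymes of propionyl-CoA, branched-chain and accessory reactions.

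RNA from the ileum mucosa was sequenced in 14 male mice kept on a high-fat diet (HFD) for 15 weeks, 1 library per mouse. The 7 wild-type (WT) mice were NCoR1 flox/flox without Cre. The 7 knockout (IKO) mice were NCoR1 flox/flox and also carried Cre under the villin promoter, which is active in the intestinal epithelium, so that the nuclear receptor corepressor NCoR1 was lost in epithelial cells. The methods describe age-matched mice that were young adults when the diets began, before these 15 weeks. The labels name the cells as intestinal epithelial cells whereas the methods name the mucosa, which also holds cells in which this Cre is silent.

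A long-chain FA reaches the mitochondrial matrix as an ester of carnitine. Cpt1 enzymes form the acyl-carnitine on the outer membrane, Slc25a20 exchanges it across the inner membrane and Cpt2 returns the acyl group to CoA. Each turn of the spiral then runs through a dehydrogenase, a hydratase, a second dehydrogenase and a thiolase, and the electrons of the first dehydrogenase pass through the electron transfer flavoprotein to the respiratory chain. In the small intestine these enzymes are most active in absorptive enterocytes, which meet dietary fat, and many of their genes are known targets of the nuclear receptor PPARα, whose repression involves NCoR1.

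Between 14749669 and 21557468 reads per mouse were counted on genes. Ncor1 itself fell in IKO mice, from a median of 129.7 CPM (read counts on a common library size, scaled by TMM factors) in WT to 47.7, with a log2 fold change of -1.41 (edgeR's quasi-likelihood test, Benjamini-Hochberg adjusted p = 0.00051). The share of reads on genes of the mitochondrial genome was 3.49% to 10.3% in 12 of the mice, but 23.9% in WT 3 and 50.3% in IKO 4. WT 4 held 10855 CPM of 6 smooth muscle genes in sum, when the next WT mouse had 62.4 and IKO mice ranged from 4.53 to 796. The median sum was 22.6 CPM in WT and 10.5 CPM in IKO mice. WT 4 was also the highest WT mouse for 5 fibroblast genes (339 CPM, against 61.4 in the next), with median sums of 28.1 CPM in WT and 18.3 CPM in IKO mice. The fold changes of both lists given below include WT 4. The summed level of 8 enterocyte markers ranged from 21828 to 102961 CPM in WT and from 47770 to 84748 CPM in IKO mice, and 0 of these 8 passed the test. Of the other marker lists, 1 tuft cell gene, Avil, passed and was lower in IKO mice. The log2 fold change was negative for 4 of 4 stem cell genes (median -1.04), 4 of 4 tuft cell (-0.68), 6 of 6 smooth muscle (-3.10), 5 of 5 fibroblast (-2.003), 4 of 4 plasma and B cell (-1.19) and 4 of 4 myeloid genes (-0.54), and positive for 6 of 8 enterocyte genes (0.34). It was also positive for 3 of 4 ileal enterocyte (0.53), 6 of 6 goblet (0.15) and 3 of 6 Paneth cell genes (0.07). Of the rest, 5 of 6 enteroendocrine (-0.25), 3 of 5 T cell (-0.07) and the 1 tested adipocyte gene (-1.85) were negative, and 0 pancreas genes were tested. Their part in the results was not tested. In a bulk sample, more RNA per cell and more cells that express a gene cannot be told apart.

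Of the 34 genes, 32 had enough counts to be tested, and 12 of them rose in IKO mice while 0 fell. Among all 13846 genes tested, 4.38% rose and 4.28% fell at the same threshold, the 0.05 set on Benjamini-Hochberg adjusted p of the quasi-likelihood test in edgeR. The log2 fold change was positive for 30 of the 32 genes, with a median of 0.66, when it was positive for 43.5% of all genes, with a median of -0.09. The 12 genes that rose were Slc25a20, Slc22a5 and Cpt2 of the shuttle, the dehydrogenases Acadvl and Acadl, Hadha and Hadhb of the trifunctional protein, Echs1, Hadh and Acaa2 of the matrix spiral, and the auxiliary enzymes Decr1 and Eci2. In 7 of them (Cpt2, Slc25a20, Hadha, Hadhb, Echs1, Eci2 and Decr1) every IKO mouse was above every WT mouse, a pattern found in 1.83% of all genes tested. The 20 genes that did not pass comprised 18 with a positive and 2 with a negative log2 fold change.

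**Figure D1:**
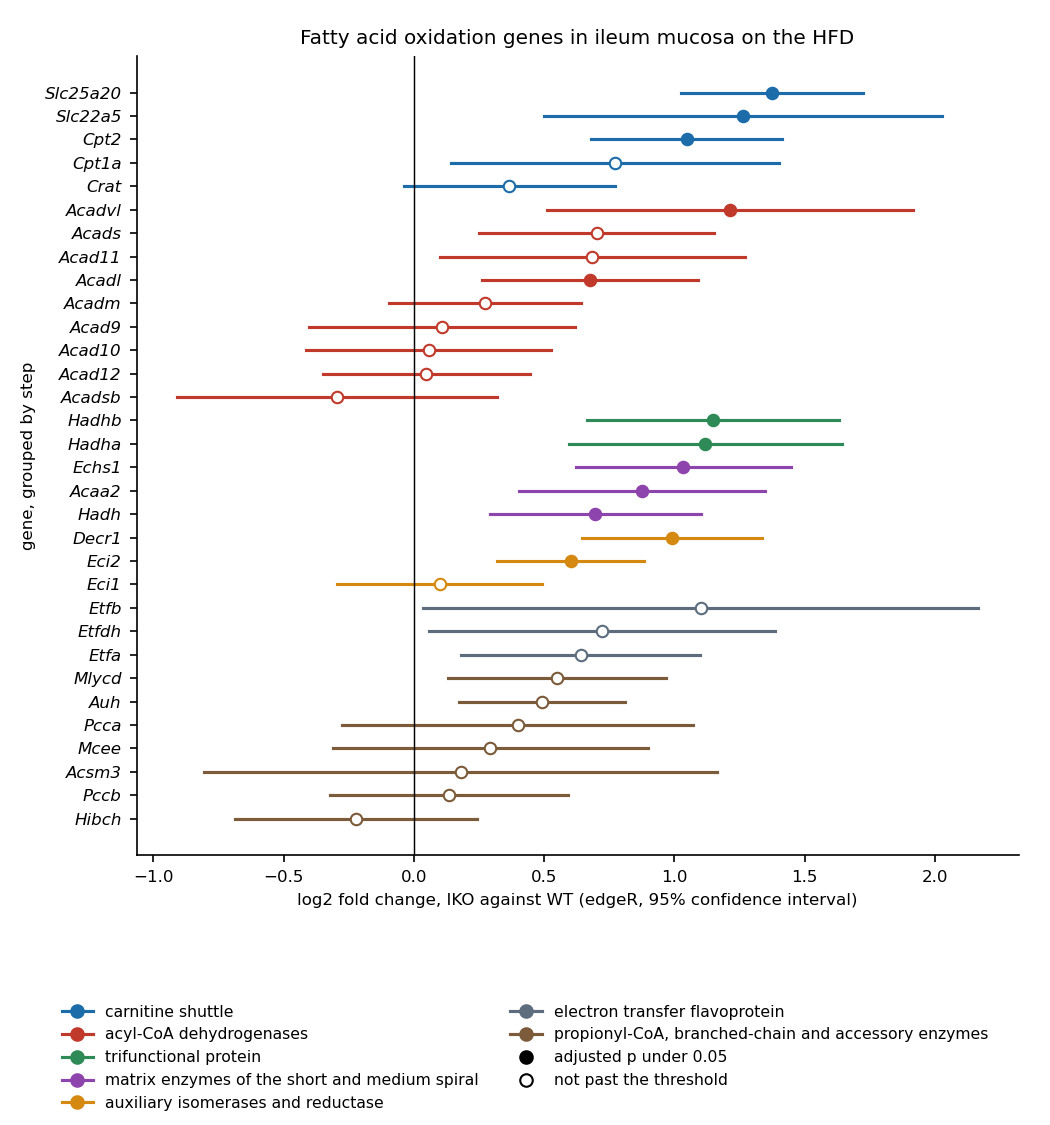
The log2 fold change of each of the 32 tested genes (x axis, IKO against WT, edgeR estimate with its 95% confidence interval) is drawn by step of the pathway (y axis and color). Filled points, 12 in all and each to the right of 0, passed an adjusted p of 0.05, and 2 open points lie to the left of 0.

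The count of 12 depended on the mice included. Without WT 3, WT 4 and IKO 4 together, 6 of the 32 genes rose and 0 fell, when 1.97% of all genes rose in the same fit. When 1 mouse was left out at a time, between 7 and 13 rose, with 7 in each case without WT 3, WT 7, IKO 1 or IKO 5. Of all genes, 2.37% to 4.87% rose in the same fits. Slc25a20, Cpt2, Hadha, Hadhb, Echs1, Eci2 and Decr1 passed in each of these 14 fits.

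The shift was also visible mouse by mouse. Relative to the WT median of each gene, the median over the 32 genes lay between -0.23 and 0.23 on the log2 scale in WT mice and between 0.26 and 0.86 in IKO mice. The lowest IKO mouse was IKO 6, and the highest was IKO 4, the library with the large mitochondrial share. In WT mice, 8 to 22 of the 32 genes were above the WT median, and in IKO mice 23 to 29 were. Summed over the genes of a step, the ranges of WT and IKO mice did not overlap in 6 of the 7 steps. The shuttle, for example, held 428 to 679 CPM in WT and 1012 to 1256 CPM in IKO mice, and the trifunctional protein 221 to 538 CPM against 619 to 1001 CPM. The gap between the highest WT and lowest IKO mouse was narrow for the dehydrogenases (645 and 660 CPM) and the matrix enzymes (888 and 900). It was also narrow for the auxiliary enzymes (218 and 223) and the electron transfer flavoprotein (283 and 291). The share of such gaps among sums over other genes was not computed. The enzymes of propionyl-CoA, branched-chain and accessory reactions overlapped, with 148 to 217 CPM in WT and 163 to 296 CPM in IKO mice.

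In the carnitine shuttle, the 3 genes that rose were the inner membrane carrier, the inner membrane transferase and the plasma membrane carnitine transporter. Slc25a20, the carnitine-acylcarnitine translocase (chromosome 9, 108662088 to 108684641), had from 104 to 178 CPM in WT mice (median 111) and from 269 to 412 CPM in IKO mice (median 288). All 7 IKO mice were above all WT mice, of which WT 2 was the highest by a wide gap. The fold change was 2.59 (95% confidence interval 2.03 to 3.30, edgeR adjusted p = 0.00029). Cpt2 (chromosome 4, 107903981 to 107923610), which re-forms acyl-CoA in the matrix, had from 112 to 164 CPM in WT (median 121) and from 213 to 356 CPM in IKO mice (median 229.8). The genotypes did not overlap, and the fold change was 2.07 (95% confidence interval 1.60 to 2.66, edgeR adjusted p = 0.0036). Slc22a5, the sodium-dependent carnitine transporter of the plasma membrane, had from 47.0 to 132 CPM in WT (median 99.7) and from 53.3 to 351 CPM in IKO mice (median 264). In 5 IKO mice it was above every WT mouse, whereas IKO 2 and IKO 4 lay within the WT range. Its fold change of 2.40 (95% confidence interval 1.41 to 4.08, edgeR adjusted p = 0.042) passed in only 4 of the 14 fits that left out 1 mouse, those without WT 2, WT 6, IKO 2 or IKO 4, with adjusted p from 0.012 to 0.087 over the 14.

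Cpt1a, the outer membrane transferase at which malonyl-CoA inhibits the shuttle (chromosome 19, 3323301 to 3385732), did not pass. It had from 53.5 to 168 CPM in WT mice (median 131) and from 93.5 to 293 CPM in IKO mice (median 183). IKO 2 and IKO 4 fell inside the WT range, and the other 5 IKO mice were above it. The log2 fold change was 0.77 (standard error 0.30, edgeR adjusted p = 0.10). The muscle-type gene Cpt1b had 45 counts over all mice, with 0 to 0.644 CPM in WT and 0 to 0.344 CPM in IKO mice. The brain-type gene Cpt1c had 195 counts, of which 134 were in WT 4, the library with the smooth muscle RNA. Both were too low to be tested, so nearly all reads of the 3 Cpt1 genes were those of Cpt1a. Crat, the carnitine acetyltransferase for short chains, had a log2 fold change of 0.37 (edgeR adjusted p = 0.20), and its 7 IKO mice were above the WT median.

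**Figure D2:**
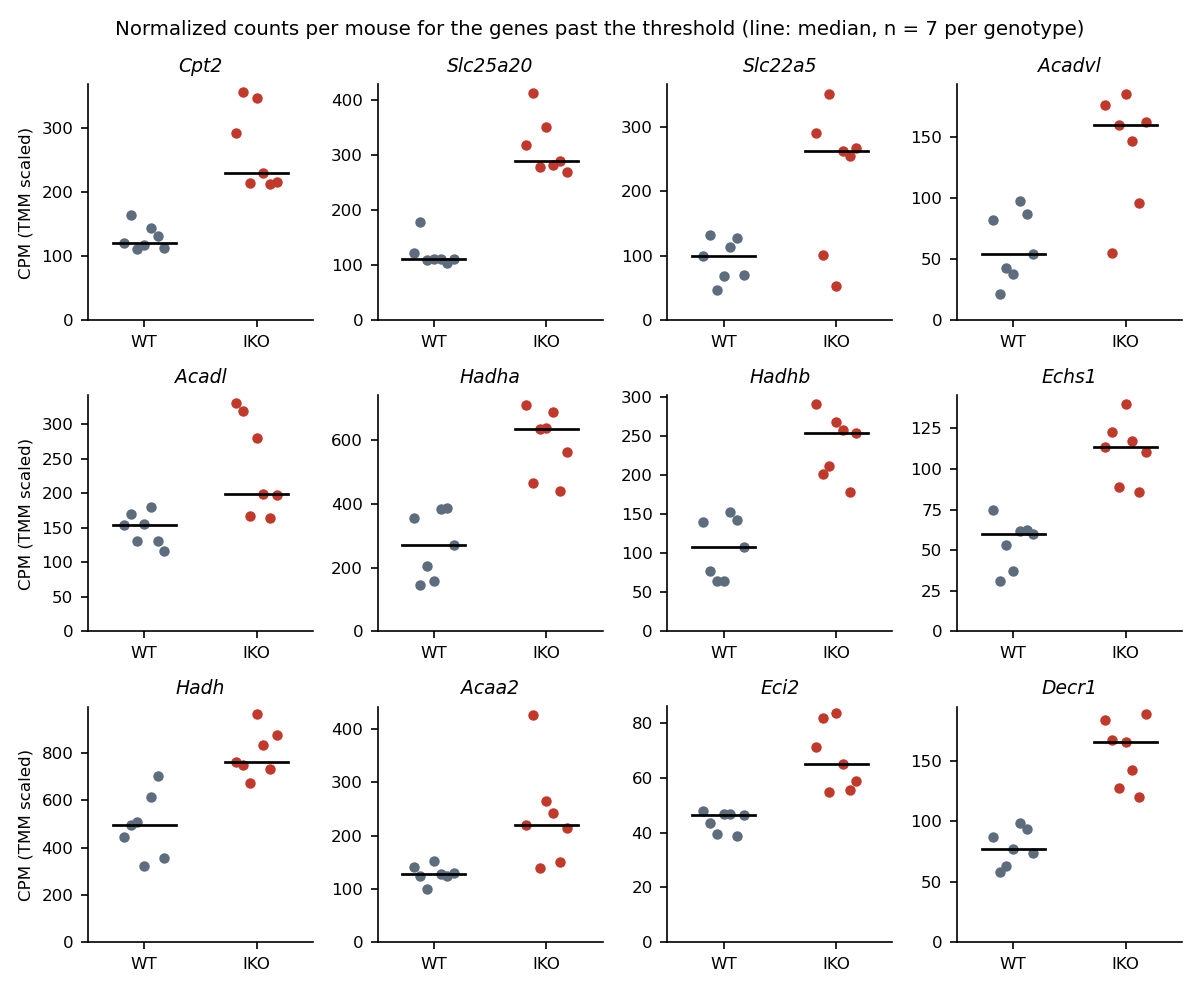
Normalized counts (y axis, CPM, each panel from 0) are shown for each of the 7 WT and 7 IKO mice (points) with the median of the genotype (line), for the 12 genes past the threshold. In 7 panels the genotypes do not overlap, and in those of Slc22a5, Acadvl, Acadl and Acaa2 2 IKO mice lie within the range of the WT mice.

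PPARα binds, with its partner RXR, to a direct repeat of the half-site AGGTCA with 1 base between, written AGGTCANAGGTCA and called DR1. RefSeq promoter windows of 300 bases (GRCm38.p6, from 250 before to 50 after each start) were found for 29 of the 34 genes and searched on both strands. The genes without a window were Cpt1b, Crat, Acad9, Acaa2 and Decr1. The exact DR1 was in 0 of the 29 genes and in 0.0396% of all 32851 windows. With up to 2 mismatches over both half-sites, it was found in Slc25a20, Echs1, Etfa and 1 of the 2 windows of Pcca, that is in 4 of 29 genes, against 3.86% of all windows. The half-site AGGTCA alone, which lies within DR1, was in 6 of 29 genes and 16.3% of all windows. The motif TCAAGGTCA, which estrogen-related receptors are known to bind and which also contains the half-site, was in 0 of 29 genes and 0.423% of windows. These letters describe the windows and are not evidence of binding. The stretch of Slc25a20 is shown because this gene had the largest fold change of the 12, and that of Cpt1a because it catalyzes the first step. Capitals mark the near match to DR1 in Slc25a20 (chr9:108662134-108662163, plus strand, just after the RefSeq start) and the half-site, read on the opposite strand, in Cpt1a (chr19:3323051-3323300, plus strand, upstream of the start).
Slc25a20: ctgaatgtAGGTGAAAGGTCGgcggagccg
Cpt1a: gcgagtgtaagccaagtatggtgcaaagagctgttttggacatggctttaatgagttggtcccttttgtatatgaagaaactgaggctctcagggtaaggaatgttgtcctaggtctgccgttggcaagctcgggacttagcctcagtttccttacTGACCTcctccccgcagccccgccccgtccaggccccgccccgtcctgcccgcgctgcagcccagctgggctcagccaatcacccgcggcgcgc

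The acyl-CoA dehydrogenases, which open each turn of the spiral, did not move as 1 block. Of the 9 genes, 2 rose and 7 did not pass, and the median log2 fold change was 0.27. Both that rose act on long chains. Acadvl, for very long chains (chromosome 11, 70010183 to 70015411), had from 21.6 to 97.9 CPM in WT mice (median 54.4) and from 55.4 to 185 CPM in IKO mice (median 159.8). IKO 2 and IKO 6 lay within the WT range. Its fold change was 2.32 (95% confidence interval 1.43 to 3.77, edgeR adjusted p = 0.037). Acadl, for long chains, had from 116 to 181 CPM in WT (median 154) and from 165 to 331 CPM in IKO mice (median 199). In 5 of 7 IKO mice it exceeded every WT mouse. Its fold change was 1.60 (95% confidence interval 1.20 to 2.13, edgeR adjusted p = 0.045). Neither call was stable to the loss of 1 mouse. Acadvl passed in 6 of the 14 such fits, those without WT 1, WT 2, WT 5, WT 6, IKO 2 or IKO 6, with adjusted p from 0.022 to 0.073. Acadl passed in 4 of the 14, those without WT 2, WT 5, IKO 3 or IKO 6, with adjusted p from 0.032 to 0.094.

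The other dehydrogenases did not pass in the main edgeR fit. Acads, for short chains, had a log2 change of 0.70 (standard error 0.21, edgeR adjusted p = 0.051), nearly that of Acadl, and its 7 IKO mice were above the WT median. Acads passed with DESeq2 (0.74, adjusted p = 0.013) and with RLE scaling (0.73, edgeR adjusted p = 0.046), so the divide by chain length depended on the method. Acadm, for medium chains, had 0.27 (standard error 0.17, edgeR adjusted p = 0.29). Acad11, which accepts long chains, had 0.69 (standard error 0.28, edgeR adjusted p = 0.11), with IKO 2 far below the other IKO mice. Acad9, known for its part in assembling respiratory complex I, had 0.11, Acad10 had 0.06 and Acad12 had 0.05, with edgeR adjusted p from 0.79 to 0.88. Acadsb, for short branched chains, was the only dehydrogenase with a negative log2 fold change (-0.30, standard error 0.29, edgeR adjusted p = 0.51). Its locus lies within that of Fgfr2 on the opposite strand, which had 4102 counts against its 2372, and whether counting used strand is not stated. The order by chain length was not monotonic, and the log2 ratios of Acadvl, Acadl and Acadm to Acads differed between genotypes by 0.61 ± 0.46, -0.03 ± 0.22 and -0.37 ± 0.31 (difference ± standard error, exact permutation test, adjusted p = 0.48, 0.87 and 0.48 over 14 ratios). With each mouse's slope of level on gene length as a covariate, the first of these was 1.37 and passed (exact permutation test, adjusted p = 0.0027).

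Hadha and Hadhb encode the α and β subunits of the trifunctional protein, which performs the last 3 reactions on long chains at the inner membrane. Hadha (chromosome 5, 30118304 to 30155162, minus strand) had from 145 to 387 CPM in WT mice (median 270.4) and from 441 to 711 CPM in IKO mice (median 633). Hadhb (chromosome 5, 30155248 to 30184593, plus strand) had from 64.0 to 153 CPM in WT (median 107) and from 178 to 290.1 CPM in IKO mice (median 254). Neither gene overlapped between the genotypes. The fold changes were 2.17 for Hadha (95% confidence interval 1.51 to 3.12, edgeR adjusted p = 0.015) and 2.22 for Hadhb (95% confidence interval 1.59 to 3.10, edgeR adjusted p = 0.0093). Without WT 3, WT 4 and IKO 4, Hadha no longer passed (log2 fold change 0.92, edgeR adjusted p = 0.075). The subunits kept their proportion. Their log2 ratio was 1.33 ± 0.23 in WT and 1.32 ± 0.14 in IKO mice (SD), a difference of -0.02 ± 0.10 (standard error, exact permutation test, adjusted p = 0.87).

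These genes lie head to head. In the deposited annotation 85 bases separate them, and the RefSeq starts are 273 bases apart. The gap is shown because both genes, which rose by nearly the same factor, are read outward from it. It holds 69.4% G and C, 0 copies of the half-site AGGTCA and 2 of the GC box GGGCGG, which is in 35.7% of all promoter windows on either strand. Capitals mark the GC boxes (chr5:30155163-30155247, plus strand, read toward Hadhb).
Hadha-Hadhb: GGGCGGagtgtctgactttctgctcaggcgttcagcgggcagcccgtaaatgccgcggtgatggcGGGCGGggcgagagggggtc

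All 3 soluble matrix enzymes for short and medium chains rose. Echs1, the enoyl-CoA hydratase (chromosome 7, 140105710 to 140116476), had from 30.9 to 74.4 CPM in WT mice (median 60.0) and from 85.8 to 139.7 CPM in IKO mice (median 113). The genotypes did not overlap, and the fold change was 2.05 (95% confidence interval 1.54 to 2.73, edgeR adjusted p = 0.0075). Hadh, the hydroxyacyl-CoA dehydrogenase, had from 322 to 701 CPM in WT (median 495) and from 672 to 963 CPM in IKO mice (median 759.7). In 6 of 7 IKO mice it was above every WT mouse, and the fold change was 1.62 (95% confidence interval 1.22 to 2.15, edgeR adjusted p = 0.038). Acaa2, the thiolase, had from 99.4 to 152 CPM in WT (median 129) and from 139 to 425 CPM in IKO mice (median 221). IKO 2 was the highest, and 5 IKO mice were above every WT mouse. Its fold change was 1.83 (95% confidence interval 1.32 to 2.54, edgeR adjusted p = 0.028). Hadh passed in 5 of the 14 fits that left out 1 mouse, those without WT 2, WT 5, WT 6, IKO 3 or IKO 6, with adjusted p from 0.025 to 0.077. Acaa2 was lost without WT 3, WT 7, IKO 1 or IKO 5 and had adjusted p from 0.018 to 0.056 over the 14. The upstream stretch of Echs1 (chr7:140116477-140116671, minus strand) is shown because it held 1 of the near matches to DR1, in capitals.
Echs1: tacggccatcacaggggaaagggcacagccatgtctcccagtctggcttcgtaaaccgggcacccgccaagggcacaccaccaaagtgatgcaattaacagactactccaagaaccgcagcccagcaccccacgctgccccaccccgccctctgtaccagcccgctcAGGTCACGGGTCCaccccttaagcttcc

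The auxiliary enzymes let unsaturated chains enter the spiral, and 2 of the 3 rose. No ratio between these 3 genes was compared. Decr1, the 2,4-dienoyl-CoA reductase (chromosome 4, 15917240 to 15945507), had from 58.2 to 98.7 CPM in WT mice (median 76.8) and from 120.2 to 188 CPM in IKO mice (median 165). Eci2, an enoyl-CoA isomerase, had from 38.6 to 47.7 CPM in WT (median 46.4) and from 54.6 to 83.6 CPM in IKO mice (median 64.8). In both genes every IKO mouse was above every WT mouse, with fold changes of 1.99 for Decr1 (95% confidence interval 1.56 to 2.52, edgeR adjusted p = 0.0036) and 1.52 for Eci2 (95% confidence interval 1.25 to 1.85, edgeR adjusted p = 0.016). Without WT 3, WT 4 and IKO 4, Eci2 no longer passed (log2 fold change 0.53, edgeR adjusted p = 0.079). Eci1, the other isomerase, had a log2 change of 0.10 (standard error 0.19, edgeR adjusted p = 0.75) and overlapping ranges of 52.3 to 83.7 CPM in WT and 47.6 to 98.0 CPM in IKO mice.

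The electron transfer flavoprotein takes the electrons of the acyl-CoA dehydrogenases, and Etfdh hands them to ubiquinone. Of these 3 genes, 0 passed, with log2 fold changes of 0.64 for Etfa (standard error 0.22, edgeR adjusted p = 0.072), 1.10 for Etfb (standard error 0.50, edgeR adjusted p = 0.15) and 0.72 for Etfdh (standard error 0.31, edgeR adjusted p = 0.14). With DESeq2, Etfa passed (0.675, adjusted p = 0.028), while Etfb (adjusted p = 0.089) and Etfdh (adjusted p = 0.094) did not. Etfa, the α subunit, had from 62.4 to 177 CPM in WT mice (median 126) and from 134 to 257 CPM in IKO mice (median 196). Etfdh had from 27.5 to 96.7 CPM in WT (median 51.1) and from 44.1 to 133 CPM in IKO mice (median 100.3), and IKO 2 was the lowest of its genotype in both genes. Etfb, the β subunit, had 11.6, 59.3, 36.4, 35.8, 13.7, 13.2 and 12.6 CPM in WT 1 to 7 and 51.5, 164, 15.3, 58.3, 36.5, 30.9 and 34.03 CPM in IKO 1 to 7. Thus WT 2, WT 3, WT 4 and IKO 2 were far above other mice of their genotype in Etfb, and the first 3 had the lowest levels of Cpt1a and Acadvl among WT mice.

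These mice also differed in how level related to gene length. In each mouse the slope of log2 level on log2 gene length was taken over 6265 well-expressed genes, and it ranged from -0.02 to 0.21 in WT (median 0.05) and from -0.37 in IKO 2 to 0.15 in IKO 3 (median -0.07). The genotypes overlapped (exact permutation test, two-sided, p = 0.066). The 3 WT mice with high Etfb had the lowest slopes of their genotype. Etfb has a length of 1164 bases, whereas Etfdh has 7505 and Acad11 has 9798. The short genes Eci1 (1091 bases) and Mcee (956 bases) followed Etfb only in part. Both were lowest among WT mice in WT 3, with 52.3 and 7.00 CPM. Mcee, however, was highest among WT mice in WT 2 (18.04 CPM), followed by WT 4 (16.9 CPM). Eci1 was highest in WT 4 (83.7 CPM) and at its WT median in WT 2 (70.0 CPM). Both were highest of all IKO mice in IKO 2. With this slope as a covariate, an alternative chosen after seeing the data, Etfb had a log2 fold change of -0.0017 (edgeR adjusted p = 0.997), while Etfa (0.90, adjusted p = 0.021), Etfdh (1.26, adjusted p = 0.021), Cpt1a (1.25, adjusted p = 0.0083) and Acad11 (1.14, adjusted p = 0.016) passed. Acadl (0.41, edgeR adjusted p = 0.13) and Acaa2 (0.46, edgeR adjusted p = 0.085) no longer did. In this fit 14 genes rose, 10 of them among the 12, and 0 fell, when 7.74% of all genes rose, and the median log2 fold change of the 32 genes was 0.44. What set the slope apart between mice was not tested.

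Of the 7 genes for propionyl-CoA, branched-chain and accessory reactions, 0 passed, and 6 had a positive log2 fold change with a median of 0.29 over the 7. The largest were those of Mlycd, the malonyl-CoA decarboxylase (0.55, standard error 0.20, edgeR adjusted p = 0.085), and Auh, a hydratase of leucine breakdown (0.49, standard error 0.15, edgeR adjusted p = 0.052). In both genes the 7 IKO mice were above the WT median. Both passed with DESeq2 (0.59, adjusted p = 0.042 for Mlycd and 0.53, adjusted p = 0.013 for Auh). With the length slope as a covariate Mlycd had 0.18, and Pcca (0.70) and Acsm3 (0.56) had the largest values of the 7, with 0 past the threshold. The propionyl-CoA carboxylase subunits had 0.40 for Pcca and 0.13 for Pccb, and the epimerase Mcee had 0.29, with edgeR adjusted p from 0.41 to 0.70. Pcca overlaps Ggact on the opposite strand, which had 9934 counts against its 2343. Acsm3, a medium-chain acyl-CoA synthetase that overlaps Eri2 on the opposite strand, had 0.18 (edgeR adjusted p = 0.82). Hibch, of valine breakdown, had a negative value of -0.22 (standard error 0.22, edgeR adjusted p = 0.51).

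Per unit of annotated gene length, the members spanned a wide range of levels. That length ran from 956 bases (Mcee) to 9798 bases (Acad11). Transcript lengths in this tissue were not measured, so the order between genes depends on the annotation. In the deposited FPKM (reads per length of gene, scaled between mice), the WT medians were highest for Hadh (97.1), Acaa2 (83.5), Acadl (75.2), Etfa (66.1), Eci1 (62.6) and Cpt2 (49.8), and lowest for Acsm3 (0.376), Cpt1b (0.0573) and Cpt1c (0.0367). In WT mice the ranges of neighbors in this order overlapped for each pair except Acad11 and Auh. In IKO mice the median of Slc25a20 was 59.1 FPKM against 22.5 in WT, close to that of Eci1, which was 62.6 in both genotypes. Cpt2 reached 97.6 FPKM in IKO mice, near Acadl with 101.

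**Figure D3:**
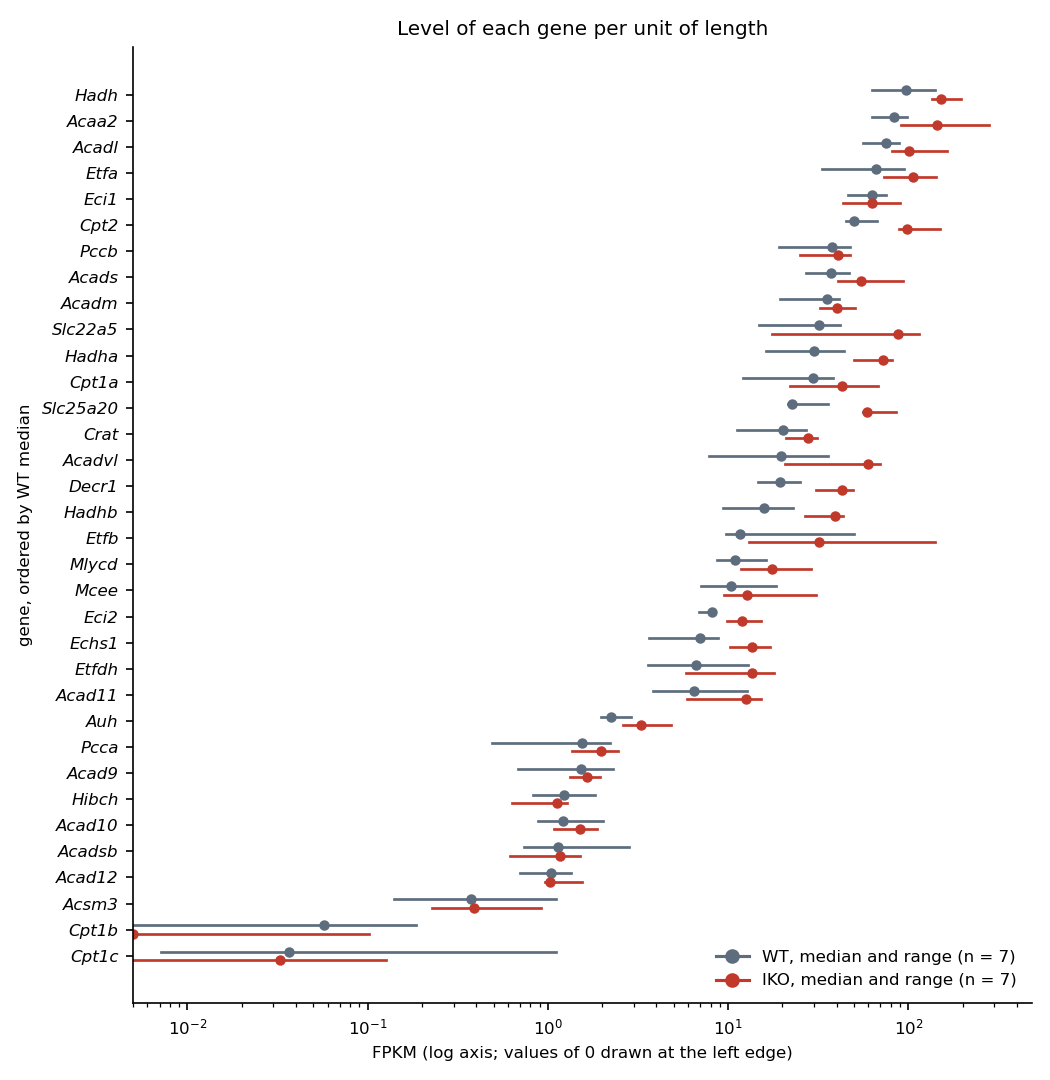
The median (point) and the range over 7 mice (line) of the deposited FPKM are drawn on a log axis for the 34 genes in order of the WT median, with WT in grey and IKO in red. Slc25a20, Cpt2, Hadha, Hadhb, Echs1, Eci2 and Decr1 have ranges that do not meet, and Eci1 has the same median in both genotypes.

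Ratios between genes within a mouse showed where the rise was unequal. Of 14 ratios compared by exact permutation tests, 2 passed at an adjusted p under 0.05. The log2 ratio of Slc25a20 to Cpt2 was -0.10 ± 0.19 in WT and 0.25 ± 0.15 in IKO mice (SD, n = 7), a difference of 0.36 ± 0.09 (standard error, exact permutation test, p = 0.0017, adjusted p = 0.012), and 7 of 7 IKO mice were above the WT median. The carrier thus rose more than the matrix transferase. The log2 ratio of Eci1 to Echs1 was 0.32 ± 0.64 in WT and -0.68 ± 0.19 in IKO mice (SD, n = 7), a difference of -0.997 ± 0.252 (standard error, exact permutation test, p = 0.0012, adjusted p = 0.012). None of the 7 IKO mice was above the WT median of that ratio. Both ratios passed in 19 of 20 alternatives, the exception being the replicate block, where the smallest possible p is 0.016. The ratio of Cpt1a to Cpt2 differed by -0.23 ± 0.43 and that of Etfb to Etfa by 0.34 ± 0.68 (standard error, exact permutation test, adjusted p = 0.73 for both). The ratio of Hadha to Hadh, the long-chain against the short-chain enzyme, differed by 0.47 ± 0.22 (exact permutation test, adjusted p = 0.19), and by 0.65 with the length slope as a covariate (exact permutation test, adjusted p = 0.023).

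**Figure D4:**
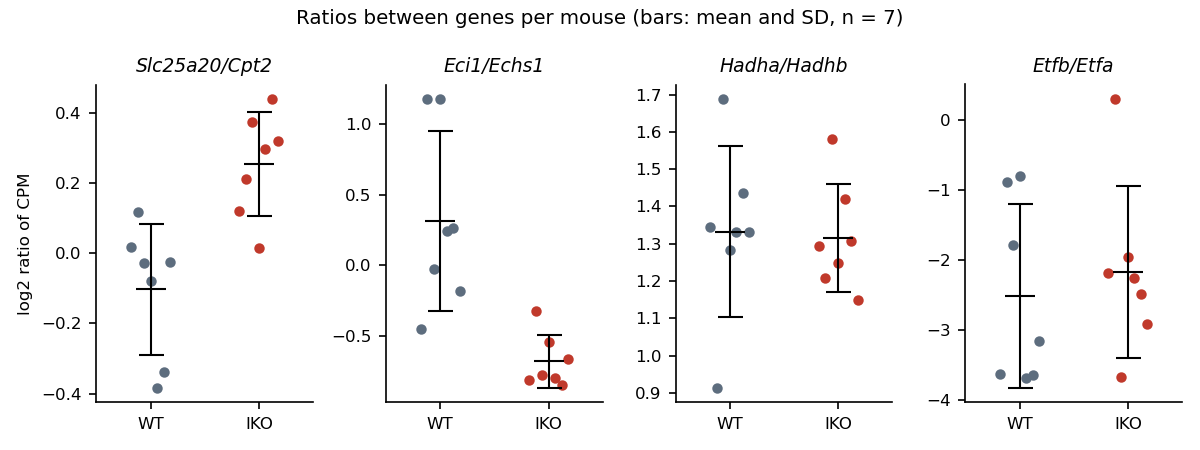
The log2 ratio of CPM (y axis) is shown for 4 pairs of genes in each of 7 WT and 7 IKO mice (points), with mean and SD (bars). Slc25a20/Cpt2 was higher and Eci1/Echs1 lower in IKO mice, Hadha/Hadhb had nearly the same mean in both genotypes, and Etfb/Etfa spread over a wide range within each.

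The members were next set against other genes of mitochondria and epithelium. Of 50 nuclear genes of the respiratory chain, 10 rose and 0 fell, all 50 had a positive log2 fold change and their median was 0.59. Of 12 epithelial structure genes, 0 passed and the median was 0.37. With libraries scaled on the respiratory chain genes in place of TMM, the median of all genes moved to -0.61, and 1 of the 32 members was higher, Slc25a20 (0.83, edgeR adjusted p = 0.011), 1 was lower, Eci1 (-0.46, edgeR adjusted p = 0.048), and the signs divided into 18 positive and 14 negative. In that fit 0.831% of all genes were higher and 30.8% lower. With libraries scaled on the epithelial genes, the median of all genes moved to -0.43, 6 members were higher (Slc25a20, Cpt2, Slc22a5, Hadha, Hadhb and Decr1), 0 were lower, and 22 were positive and 10 negative, when 1.7% of all genes were higher and 20.6% lower. Relative to the median of all genes, that of the members was 0.75 higher under TMM, 0.76 higher under epithelial scaling and 0.69 higher under respiratory chain scaling, on the log2 scale. Single genes moved by unequal amounts, for example Etfb from 1.10 to 0.40 and Slc22a5 from 1.26 to 0.87 under respiratory chain scaling. A change of scaling shifts all genes of a mouse together, however, and medians over many genes move by nearly the same amount. The differences between medians, and those by step below, were therefore bound to stay nearly equal and are no test of the members. By step, the median stayed positive under both scalings for the shuttle, the trifunctional protein, the matrix enzymes, the auxiliary enzymes and the electron transfer flavoprotein. It was below 0 under respiratory chain and epithelial scaling for the dehydrogenases (-0.26 and -0.03) and the propionyl-CoA, branched-chain and accessory enzymes (-0.31 and -0.02). Relative to the median of all genes, that of the dehydrogenases was 0.36 higher under TMM and 0.35 and 0.40 higher under these scalings, and that of the latter enzymes 0.38, 0.30 and 0.41 higher.

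**Figure D5:**
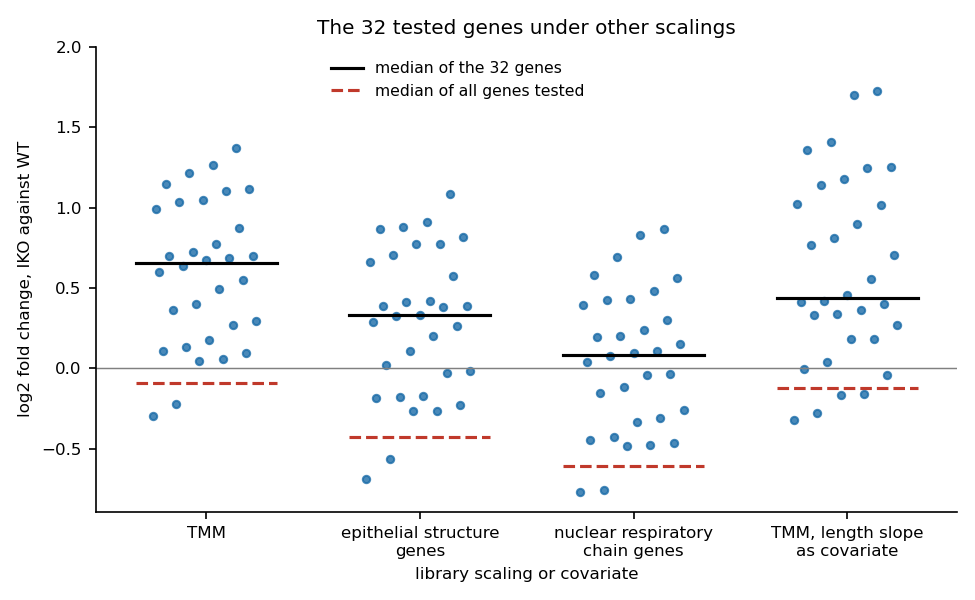
Each point is the log2 fold change of 1 of the 32 tested genes (y axis, IKO against WT) under TMM, 2 other library scalings and TMM with the length slope as a covariate (x axis). The solid line marks the median of the 32 genes (0.66, 0.33, 0.09 and 0.44) and the dashed line that of all genes tested, which lies below it in each case. A change of scaling moves both lines by nearly the same amount.

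Genes around the pathway were counted in the same edgeR fit. Of 9 tested genes for carnitine supply and other acyl transfer, 2 rose and 0 fell. Dbi, the acyl-CoA binding protein, had from 270.1 to 401 CPM in WT mice (median 355) and from 641 to 1516 CPM in IKO mice (median 889.8), without overlap (log2 fold change 1.49, edgeR adjusted p = 0.00089). Bbox1, the last enzyme of carnitine synthesis, was low, with from 0.602 to 4.50 CPM in WT (median 1.16) and from 3.71 to 28.6 CPM in IKO mice (median 7.37), and its log2 fold change was 2.35 (edgeR adjusted p = 0.030). All 7 IKO mice were above the WT median of both genes. Of 7 genes for FAD supply and flavoprotein maintenance, 0 passed, with a median log2 fold change of 0.28. Of 16 genes for amino acid acyl-CoA dehydrogenases and their partners, which use related mitochondrial chemistry on other substrates, 0 passed, and their median was 0.04.

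Malonyl-CoA, the inhibitor of Cpt1, is made by acetyl-CoA carboxylases, and both of their genes rose in IKO mice. Acacb, the mitochondrial form, had from 1.77 to 8.95 CPM in WT (median 5.70) and from 9.53 to 22.8 CPM in IKO mice (median 17.0), with a log2 fold change of 1.54 (edgeR adjusted p = 0.015). Acaca, the cytosolic form, had from 13.7 to 28.2 CPM in WT (median 19.2) and from 29.9 to 53.8 CPM in IKO mice (median 36.7), with a log2 fold change of 0.92 (edgeR adjusted p = 0.011). Neither overlapped between genotypes. Prkag2, a regulatory subunit of the AMP-activated kinase that inhibits these carboxylases, fell from a median of 46.7 to 24.8 CPM (log2 fold change -0.83, edgeR adjusted p = 0.0066). The other 7 of the 10 genes of malonyl-CoA control did not pass.

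Among 15 transcriptional regulators of the pathway, 2 rose in IKO mice. Ppara, the receptor for which many of these enzymes are known targets, had from 5.65 to 30.4 CPM in WT (median 22.4) and from 27.9 to 112 CPM in IKO mice (median 41.7), a log2 fold change of 1.55 (edgeR adjusted p = 0.029). Ppard, a related receptor, had a log2 fold change of 0.74 (edgeR adjusted p = 0.019) and did not overlap. The fall of Ncor1 is given above. Ppargc1a, the coactivator PGC-1α, had from 17.0 to 67.6 CPM in WT (median 31.6) and from 16.2 to 50.2 CPM in IKO mice (median 31.5), with a log2 fold change of -0.12 (standard error 0.31, edgeR adjusted p = 0.82).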

How the data were processed

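The authors' deposited table of counts holds reads counted per gene in ileum mucosa RNA of 7 WT and 7 IKO mice, without normalization. Per the labels, reads were aligned to mm10 with HISAT2 2.0.5 and counted with featureCounts 1.5.0-p3, and DESeq2 1.16.1 is named. The deposited FPKM equal the counts per kilobase of gene length divided by DESeq2 size factors and 1 constant. Use of strand is not given in the sources used here. The files name the IKO mice KO, and nothing says that same-numbered mice are paired.

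Genes were filtered with filterByExpr, scaled with TMM and compared with edgeR 4.0.16 (quasi-likelihood, genotype only, two-sided) in R 4.3.3, with Benjamini-Hochberg adjustment over the 13846 genes tested. Intervals are at 95%. Ratios of CPM (prior count 2) were compared by exact two-sided permutation over 3432 divisions, adjusted over 14 ratios. Depth per mouse is in the report. The fit was tested on simulated counts.

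All 34 members are accounted for, with the lowest, median and highest level for those that passed and for the trifunctional protein, the electron transfer flavoprotein, Cpt1 and Cpt2 genes. Of each other list at most 3 genes past the threshold with the largest change are named, plus Ppara, Ppargc1a and Ncor1. Members, lists and tests were chosen with earlier results of these data known. Alternatives were DESeq2 1.42.0, RLE, other count filters, limma 3.58.1 on log2(FPKM + 1) and log2(FPKM + 0.1), a replicate block, libraries left out, and, added after the data were seen, slopes on gene length and GC content. Promoter sequences are from RefSeq (GRCm38.p6). A regulator on the lists is not reported here.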

Additional observations from a re-analysis of the deposited data

Results flagged for a closer look

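In each genotype, the mouse farthest from the others was examined by the gap to its nearest neighbor divided by the whole range, for 98 groups of 7 values. In 10 of them this share was above the 95% critical value of Dixon's test, when chance gives about 1 in 20 groups, or 4.9.

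In WT mice, Slc25a20 was highest in WT 2 (178 CPM, a gap of 0.694 of the range), which is on the side of the IKO mice, and Acad12 was lowest in WT 5 (4.61 CPM, 0.575). The log2 ratio of Cpt1b to Cpt1a was highest in WT 2 (-6.16, 0.584), where Cpt1b had at most 10 counts. IKO 2 was the lowest IKO mouse for Acad11 (58.3 CPM, 0.616), for Etfdh (44.1 CPM, 0.606) and for the log2 ratio of Acadvl to Acads (-1.94, 0.665), and the highest for that of Acaa2 to Hadhb (1.08, 0.648). This mouse also had the lowest slope on gene length (-0.37). The part of that slope in these values was not tested. Hibch was lowest in IKO 5 (3.77 CPM, 0.609). The share of mitochondrially encoded genes stood apart in WT 3 (23.9%, 0.676) and in IKO 4 (50.3%, 0.944).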

How the results depend on the processing

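Members rose in 12 cases and fell in 0. The number that rose was 16 with DESeq2, 14 with RLE, 8 without a count filter, 12 in each of 2 filtered limma fits on FPKM and 8 without that filter, 7 to 13 with 1 mouse left out, 6 without WT 3, WT 4 and IKO 4, 15 with a GC slope and 11 with both slopes, and 0 fell in each of these. DESeq2 added Acads, Auh, Etfa and Mlycd to the 12, and RLE added Acads and Auh. Of all genes, 7.67% rose with DESeq2, 4.98% with RLE, 1.19% without a count filter and 5.82%, 5.8% and 1.56% in the limma fits. The share was 2.37% to 4.87% with 1 mouse left out and 1.97% without the 3 libraries. It was 6.23% with a GC slope and 4.58% with both slopes. Numbers did not pair the mice: the correlation of deviations passed 0.1 for 1 of 7 numbers, and 1 of 7 correlated best with its own number. With a replicate block 7 members rose and with block and length slope 1, 2 other pathway genes rose and 0 ratios passed. Of all genes, 1.63% rose with the block and 0.282% with block and length slope. The median log2 fold change of the members was 0.56 to 0.69 with 1 mouse left out, 0.44 with the length slope and 0.40 with both slopes. With DESeq2, 11 other pathway genes rose against 6, and 2 members were higher and 2 lower under respiratory chain scaling. With the length slope 8 ratios passed, and with 1 mouse left out 2 to 3. Signs turned for values near 0. With at least 10 counts per mouse Acad12 was -0.016. Without the 3 libraries Acadsb was 0.021, Acad9 -0.038, Acsm3 -0.29, Pccb -0.073 and Hadha/Hadhb 0.054. With the length slope Acad12 was -0.16, Eci1 -0.16, Mcee -0.28, Etfb -0.0017, Hadha/Hadhb 0.053, Cpt1a/Cpt2 0.47, Acadl/Acads 0.035, Acadm/Acads 0.053 and Etfb/Etfa -0.84 (exact permutation, adjusted p = 0.045). With the GC slope Acad12 was -0.070, Eci1 -0.026 and Mcee -0.022. With both slopes they were -0.12, -0.18 and -0.24. With block and length slope Acadsb was 0.056, Acad12 -0.22 and Hibch 0.036. With 1 mouse left out, the ranges that crossed 0 were -0.39 to 0.0042 for Acadsb, -0.0097 to 0.24 for Acad9, -0.042 to 0.17 for Acad10, -0.032 to 0.11 for Acad12, -0.042 to 0.59 for Acsm3, -0.088 to 0.041 for Hadha/Hadhb, -0.15 to 0.067 for Acadl/Acads, -0.14 to 0.0017 for Decr1/Echs1 and -0.068 to 0.63 for Etfb/Etfa. The cause of these changes was not tested. Depth limits Cpt1b and Cpt1c.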
